A study of Homo sapiens with 9 samples.

Results

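The cytosolic ribosome of human cells is built from ribosomal RNAs and a fixed set of proteins, which are named RPL for the large subunit and RPS for the small subunit. The transcripts of these proteins were followed in LAN-5, an established human neuroblastoma line, with and without added S100B, a calcium-binding protein released by astrocytes. Members were all probe sets annotated to a gene named RPL or RPS with a digit, or to RPLP0, RPLP1, RPLP2 or RPSA. Kinases of the RPS6K family, paralogues such as RPL3L and pseudogenes were left out. The rule gave 72 of the 8746 probe sets on the array, after removal of the manufacturer's controls.

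Cells grown in medium alone, called untreated here, were compared with cells given S100B at 0.5 nM and with cells given S100B at 5 µM. Each group had 3 arrays, 9 in all, and the series describes the 3 as biological replicates. Values are deposited log2 signals, so a difference of 1 is a doubling. How long the cells were exposed is not given in the sources used here, and p-values measure only the spread between these arrays.

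Ribosomal proteins are made in stoichiometric amounts, and their mRNAs are among the most abundant of growing cells. Most of these mRNAs begin with a C followed by a run of pyrimidines, the 5′ terminal oligopyrimidine or TOP motif, through which growth signals by way of mTOR and the binding protein LARP1 set how much of each mRNA is translated. In neuroblastoma, MYC proteins are known to drive ribosome production, and free RPL5 and RPL11 can bind MDM2 and so stabilise p53. Translation and protein amounts were not measured on these arrays, which read transcript signal only.

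The motif that joins these genes can be read in their start regions, taken from RefSeq on GRCh38.p14. Of the 65 member genes, 56 had a listed start, with 67 starts in all among 22199 starts of protein-coding genes. The lines that follow show 8 starts with the motif and 3 without, each with 25 bases before the start and the first 20 transcribed bases. Capitals mark the pyrimidine tract from the first transcribed base on. RPL31, RPL14, RPL39, RPS3 and RPS19 are shown because their values are described further on, RPS6 as the target of S6 kinase, RPL41 as the probe set of highest signal and RPLP1 as a stalk protein. RPL4, RPS15 and RPS4X are shown because their listed start is not a C followed by such a run.
RPL31: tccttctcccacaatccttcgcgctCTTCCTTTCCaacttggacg
RPL14: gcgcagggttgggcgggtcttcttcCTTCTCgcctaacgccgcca
RPL39: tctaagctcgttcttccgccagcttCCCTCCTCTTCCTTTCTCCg
RPL41: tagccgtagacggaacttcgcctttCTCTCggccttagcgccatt
RPLP1: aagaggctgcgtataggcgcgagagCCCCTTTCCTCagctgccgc
RPS3: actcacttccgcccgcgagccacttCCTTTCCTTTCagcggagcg
RPS6: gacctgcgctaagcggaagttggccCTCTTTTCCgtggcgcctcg
RPS19: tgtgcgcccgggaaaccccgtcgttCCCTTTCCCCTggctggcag
RPL4: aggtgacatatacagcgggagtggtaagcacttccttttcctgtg
RPS15: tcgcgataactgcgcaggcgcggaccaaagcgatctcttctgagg
RPS4X: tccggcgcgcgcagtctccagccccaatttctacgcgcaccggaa

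On GRCh38.p14 these windows lie at chr2:101002264-101002308 on the plus strand for RPL31, chr3:40457314-40457358 (plus) for RPL14 and chrX:119791611-119791655 (minus) for RPL39. Those of RPL41, at chr12:56116608-56116652 (plus), and RPLP1, at chr15:69452793-69452837 (plus), complete the large subunit examples with the motif. The small subunit windows are chr11:75399493-75399537 (plus) for RPS3, chr9:19380217-19380261 (minus) for RPS6 and chr19:41860230-41860274 (plus) for RPS19. The windows whose listed start lacks the motif are chr15:66504836-66504880 (minus) for RPL4, chr19:1438371-1438415 (plus) for RPS15 and chrX:72277229-72277273 (minus) for RPS4X. Pyrimidine runs that begin after the first transcribed base, as in the windows of RPL4 and RPS15, were not counted. Each spans the promoter edge and the start of the first exon, in the 5′ untranslated region.

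A start at C followed by at least 4 pyrimidines was found for 42 of the 67 starts, or 62.7%, and for 4.54% of all 22199 starts. Counted by gene, 42 of 56 members (75%) had at least 1 such start, and 6.24% of 15843 protein-coding genes did. The tract was 5 to 19 bases long with a median of 8, and the longest was that of RPL39. The members without such a listed start were RPL4, RPL6, RPL9, RPL10A, RPL17, RPL19, RPL27, RPL32, RPS4X, RPS7, RPS15, RPS26, RPS28 and RPS29. The array does not read where transcription begins, so the starts used in LAN-5 cells were not analysed here. Within 250 bases before to 50 after the start, on either strand, the GABPA and ETS type motif CCGGAAG was present in 34.3% of member windows and 12.8% of all windows. The TATA motif TATAAA was in 4.48% against 9.47%, the GC box GGGCGG in 53.7% against 56.3%, and AAGATGGC, a core of the YY1 motif, in 7.46% against 3.53%. These matches are letters in a window and not measured sites.

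**Figure D1:**
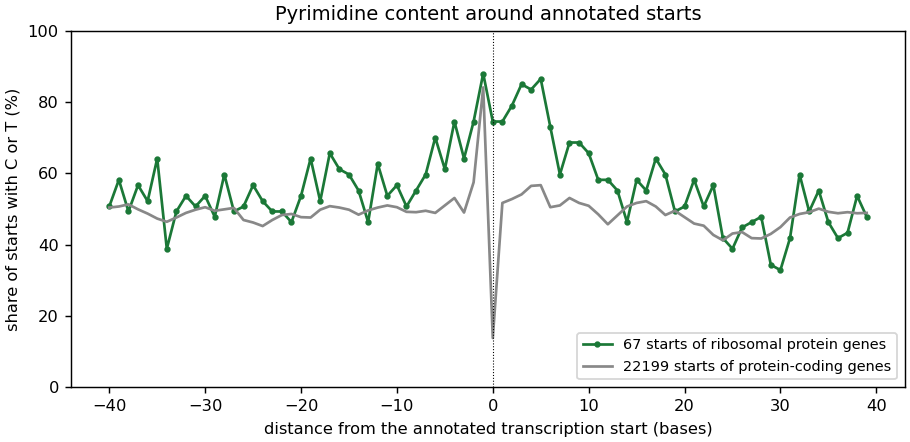
Share of starts with C or T (%, vertical) at each distance from the annotated transcription start in bases (horizontal, 0 is the first transcribed base), for 67 starts of ribosomal protein genes (green) and 22199 starts of protein-coding genes (grey). At the start base 74.6% of the member starts and 13.7% of all starts held a pyrimidine, and the green line stays above the grey through base 14 and lies below it at base 15, counting the start base as 1.

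Of the 72 probe sets, 69 were taken as probe sets of the ribosomal protein transcript, for 65 genes, and for 44 of these the listed accession matched a member gene. Several symbols are listed for 20 of the 69. In 18 of those the other symbols are small RNAs, pseudogenes or read-throughs, and in the others NBEAL1 stands beside RPL12 and C18orf32 beside RPL17. The large subunit had 42 of them for 40 genes and the small subunit 27 for 25 genes, from 21 chromosomes. The remaining 3 of the 72 were set apart because their symbols or accession are those of a neighbouring or unrelated transcript: 1 is annotated to RPL10 and NDUFS5, a complex I subunit, 1 to the RPL36A-HNRNPH2 read-through and HNRNPH2, an RNA-binding protein, and 1 to the RPS10-NUDT3 read-through and NUDT3, a phosphohydrolase. For the first pair, the listed transcript accession was that of NDUFS5 and HNRNPH2. RPLP0, RPSA and RPS27A were not analysed here. Ribosomal protein genes have many processed pseudogenes, and 15 of the 69 probe sets are of the _x_at type, which can match unrelated sequences, and 37 of the _s_at type, which can match several transcripts. Signal of near-identical copies cannot be separated from that of the gene.

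All 72 probe sets lay above the intensity filter, which left out the dimmest probe sets by the mean over all 9 arrays and kept 5830. Arrays correlated at 0.996 to 0.998 within and between groups. The line's identity was checked on noradrenergic neuroblastoma markers: 12 of 13 measured ones passed the filter, with STMN2 at 12.20, GATA3 at 11.93 and PHOX2A at 9.69. The lowest of the 12 were CHGB at 8.55, MYCN at 7.86 and HAND2 at 6.81, and TH at 5.58 did not pass. Of the markers of other cell types, 1 of 6 measured mesenchymal or Schwann-like genes, 2 of 5 glial, 1 of 4 leukocyte and 2 of 5 epithelial genes passed it, none of them above 7.29, and PTPRC was at 4.77 and EPCAM at 5.00. HAND2 lay under the leukocyte marker CD3E, at 7.29, and the glial marker MBP, at 6.83. The mean over the noradrenergic markers was 9.65 to 9.86 on the untreated arrays, 9.81 to 9.87 at 0.5 nM and 9.78 to 9.93 at 5 µM. Its part in the results was not tested.

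Most ribosomal protein probe sets were at the top of the signal range in every group. There were 63 with a mean over 9 arrays of at least 11.8, a median of 13.4 and a median percentile of 99.5 among all probe sets. None of these 63 was below the 98.3 percentile. The highest were RPL41, which encodes the shortest ribosomal protein, at 14.49, RPL37A at 14.17, RPS18 at 14.15, RPL23A, which sits at the mouth of the exit tunnel, at 14.10 and RPS13 at 14.00. Another 5 probe sets were far dimmer: RPS20 at 6.17, RPL10 at 6.22, those of RPL31 at 6.92 and 7.96, and RPL38 at 6.98. No probe set of a ribosomal protein transcript had a mean between 7.96 and 11.8. RPS4Y1 is counted and its level is not given. Signals of different probe sets do not rank transcripts, because probes bind with different efficiency.

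The bright probe sets varied little. Their within-group SD had a median of 0.0507 log2 and ran from 0.0114 for RPL23A to 0.152 for RPL10A, a protein of the L1 stalk. The median was 0.0584 for 89 other probe sets and 0.0877 for all 5830. The 89, called as bright here, have a mean no lower than that of the dimmest bright member. They were not matched for level, with a mean of 12.567 on the untreated arrays beside 13.238 for the bright members. By type of probe set the median SD was 0.0634 for 13 bright _at, 0.0473 for 35 _s_at and 0.0353 for 15 _x_at probe sets. RPL23A read 14.10, 14.09 and 14.10 untreated, 14.10, 14.10 and 14.13 at 0.5 nM, and 14.11, 14.10 and 14.10 at 5 µM. RPL10A read 12.54, 12.48 and 12.47 untreated, 12.59, 12.34 and 12.34 at 0.5 nM, and 12.63, 12.57 and 12.24 at 5 µM. The 5 µM arrays of RPL10A enclosed the whole range of the untreated ones.

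The same deposited value, to the last digit, recurred over arrays for many probe sets. It stood on at least 3 arrays for 17 of the 63 bright members (27%), 32.6% of the 89 others as bright and 22.6% of all tested probe sets. RPL23A, RPLP1 and RPS24 each had 1 value on 5 of the 9 arrays, at 14.10, 13.78 and 13.55. Why values recur was not tested. For RPL23A limma's SE of a difference was 0.0457 at a within-group SD of 0.0114, since the fit draws each spread towards a prior SD of 0.0842 shared by all probe sets.

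The first comparison asked whether the micromolar dose altered the transcripts of the ribosome. In cells given 5 µM S100B none of the 72 probe sets passed limma at an adjusted p under 0.05, in either direction. Over all 5830 probe sets 17 passed, which is 0.292%, and all of those 17 were lower. At an unadjusted p under 0.05 there were 3 of 72 members (4.17%) and 6.84% of all probe sets. The unmoderated linear model called 0 members and only 1 of all 5830 probe sets, so its 0 says little about the members. The smallest adjusted p of a member was 0.578. The members' differences had a median of 0.021 log2 and ran from -0.16 to 0.21, and the median over all probe sets was -0.024. For 50 of 72 the 95% interval lay within 0.2 log2 of 0, for 69 within 0.3, and for 72 within 0.585, a change of 1.5-fold. The furthest bound was 0.52, for RPL38.

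**Figure D2:**
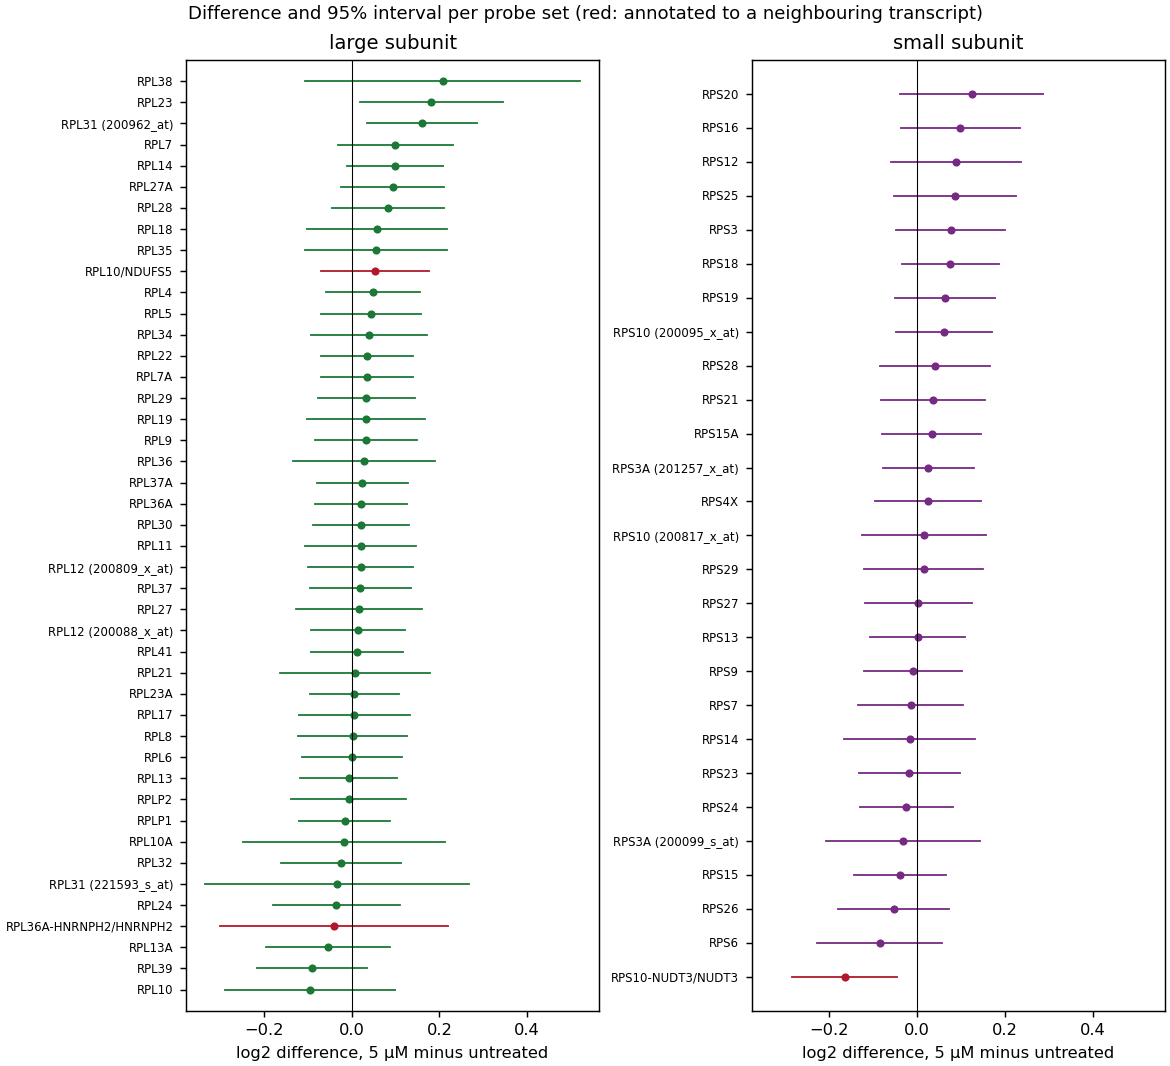
Difference between 5 µM S100B and untreated cells (horizontal, log2) for each ribosomal protein probe set except RPS4Y1, large subunit left and small subunit right; points are differences of the means of 3 arrays and bars are 95% intervals of the limma fit. Bars of RPL23, the _at probe set of RPL31 and, in red, the probe set of the RPS10-NUDT3 read-through and NUDT3 do not cross 0, and no member passed after adjustment.

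RPL31, a large subunit protein beside the exit tunnel and a Diamond-Blackfan anaemia gene, had the smallest p among probe sets of ribosomal protein transcripts. Its probe set of type _at read 7.91, 7.96 and 7.86 on the untreated arrays, 7.89, 7.86 and 7.94 at 0.5 nM, and 8.15, 8.01 and 8.06 at 5 µM. All 3 arrays at 5 µM were above the other 6, which overlapped each other. The difference was 0.16 ± 0.06 (SE) from untreated, with limma's adjusted p = 0.626, and 0.18 ± 0.06 from 0.5 nM, with adjusted p = 0.871. The second probe set of RPL31, of type _s_at, read 6.86, 7.15 and 6.94 untreated, 7.06, 6.85 and 6.56 at 0.5 nM, and 6.98, 7.14 and 6.73 at 5 µM. There the 3 groups overlapped, and the difference from untreated was -0.03 with an interval of -0.33 to 0.27. Both probe sets are dim for a ribosomal protein, and the interval of the second includes the difference seen with the first.

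RPL23, which lies at the interface of the subunits, read 11.96, 11.995 and 12.11 untreated, 12.12, 12.11 and 12.14 at 0.5 nM, and 12.37, 12.13 and 12.11 at 5 µM. The first 5 µM array stood apart, and the other 5 µM arrays lay within the range of the 0.5 nM ones. The difference from untreated was 0.18 ± 0.07 (SE), with limma's adjusted p = 0.70. Without 5 µM replicate 1 it was 0.10. RPL14, a large subunit protein, read 12.17, 12.11 and 12.16 untreated, 12.15, 12.15 and 12.16 at 0.5 nM, and 12.26, 12.28 and 12.20 at 5 µM. Its 5 µM arrays were above the other 6, by 0.10 ± 0.05 from untreated (limma's adjusted p = 0.746). RPL27A read 13.62, 13.69 and 13.72 untreated and 13.80, 13.79 and 13.72 at 5 µM, with 13.79, 13.71 and 13.73 at 0.5 nM. Its untreated and 5 µM arrays did not overlap, though the nearest pair differed by under 0.01.

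The probe set of smallest p among the 72 was that of the RPS10-NUDT3 read-through and NUDT3, which does not list RPS10 itself. It read 9.14, 8.99 and 9.10 untreated, 9.04, 9.10 and 9.05 at 0.5 nM, and 8.91, 8.90 and 8.93 at 5 µM. The 5 µM arrays were below the other 6, at -0.16 ± 0.05 (SE) from untreated, with limma's adjusted p = 0.578. RPS10, a protein of the small subunit head, has probe sets of its own. The dimmer of these, with a mean of 13.43, read 13.40, 13.39 and 13.42 untreated and 13.46, 13.52 and 13.42 at 5 µM, a difference of 0.06 with an interval of -0.05 to 0.17. The brighter, with a mean of 13.67, differed by 0.02 with an interval of -0.12 to 0.16. The arrays at 5 µM were thus lowest for the read-through probe set and not for those of RPS10.

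Of the 27 small subunit probe sets 0 had an unadjusted p under 0.05 at 5 µM, beside 6.84% of all probe sets, and none passed limma after adjustment. Their median difference was 0.025, and 18 (66.7%) were above 0, beside 38.1% of all. RPS3, which lines the mRNA entry channel, read 13.02, 12.94 and 13.01 untreated, 13.11, 13.01 and 13.10 at 0.5 nM, and 13.14, 13.02 and 13.03 at 5 µM. RPS19, the first gene linked to Diamond-Blackfan anaemia, read 13.48, 13.42 and 13.42 untreated, 13.57, 13.51 and 13.46 at 0.5 nM, and 13.50, 13.48 and 13.53 at 5 µM. In both genes the highest untreated array lay just under the lowest 5 µM array. RPS16, whose tail reaches the P site, differed by 0.10 ± 0.06 (SE) and RPS18, of the subunit head, by 0.08 ± 0.05. RPS6, the S6 kinase substrate, read 13.30, 13.29 and 13.24 untreated, 13.31, 13.24 and 13.16 at 0.5 nM, and 13.27, 13.22 and 13.08 at 5 µM. The groups of RPS6 overlapped, and its difference was -0.08 with an interval of -0.23 to 0.06. RPS20 differed by 0.12 ± 0.07 at a mean signal of 6.17.

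The large subunit had 42 probe sets with a median difference of 0.021, of which 32 (76.2%) were above 0, beside 38.1% of all. In the limma fit 2 of them (4.76%) had an unadjusted p under 0.05, beside 6.84% of all. The stalk proteins recruit the translation factors that hydrolyse GTP. RPLP1 read 13.78, 13.81 and 13.78 untreated, 13.82, 13.77 and 13.78 at 0.5 nM, and 13.78, 13.77 and 13.78 at 5 µM, and RPLP2 differed by -0.0065 with an interval of -0.14 to 0.12. For RPLP1 the interval was -0.12 to 0.09. RPL12, at the base of the stalk, differed by 0.015 and 0.021 with its 2 probe sets, and the intervals reached from -0.10 to 0.14.

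RPL5 and RPL11, which join 5S ribosomal RNA in a particle that can bind MDM2, did not stand apart. RPL5 read 12.43, 12.40 and 12.46 untreated, 12.44, 12.49 and 12.52 at 0.5 nM, and 12.53, 12.47 and 12.43 at 5 µM. RPL11 read 12.87, 12.85 and 12.83 untreated, 12.93, 12.83 and 12.82 at 0.5 nM, and 12.95, 12.85 and 12.81 at 5 µM. The groups overlapped in both, and the differences at 5 µM were 0.04 with an interval of -0.07 to 0.16 and 0.02 with an interval of -0.11 to 0.15.

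RPL4, RPL17 and RPL39 form parts of the tunnel through which the new chain leaves. RPL39 read 13.68, 13.72 and 13.65 untreated, 13.69, 13.55 and 13.61 at 0.5 nM, and 13.63, 13.54 and 13.62 at 5 µM. It was the only probe set of a ribosomal protein transcript whose 5 µM arrays all lay below the untreated ones, at -0.09 ± 0.06 (SE) with limma's adjusted p = 0.812. RPL4 read 12.20, 12.20 and 12.17 untreated, 12.20, 12.15 and 12.14 at 0.5 nM, and 12.24, 12.20 and 12.27 at 5 µM, a difference of 0.05 with an interval of -0.06 to 0.16. RPL17 differed by 0.0060 with an interval of -0.12 to 0.13.

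Genes with more than 1 probe set allowed a check within a gene. For RPS3A, a small subunit protein, the _s_at probe set differed by -0.03 with an interval of -0.21 to 0.14 and the _x_at probe set by 0.03 with an interval of -0.08 to 0.13. The probe sets of RPL12 and RPS10 had the same sign as each other and those of RPL31 and RPS3A opposite signs. The interval of the _at probe set of RPL31, 0.03 to 0.29, does not include the -0.03 of the _s_at one. RPL38, which affects translation of Hox mRNAs in the mouse, read 6.77, 6.97 and 6.89 untreated, 6.82, 6.79 and 7.35 at 0.5 nM, and 6.94, 7.02 and 7.30 at 5 µM. It had the largest difference of any member, 0.21, with an interval of -0.11 to 0.52. RPL10, which joins the large subunit late in assembly, read 6.46, 6.21 and 6.21 untreated and 6.29, 6.08 and 6.23 at 5 µM, with overlapping groups.

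Small differences above 0 were common among the members. At 5 µM 50 of the 69 probe sets of ribosomal protein transcripts (72.5%) were above 0, and 38.1% of all 5830 were. Of the 89 others as bright, 41 (46.1%) were above 0, with a median difference of -0.0011. The split depended on the scaling: after quantile normalization it was 55.1% of the 69 against 51.3% of all, and after centring each array on its median 79.7% against 46.2%. Without 5 µM replicate 1 it was 62.3%, and without the other arrays of these groups it was 65.2% to 76.8%.

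The arrays of the groups did not overlap for 9 higher and 2 lower of the 72 members, against 2.86% higher and 9.47% lower of all tested probe sets. The 9 were RPL14, RPL23, RPL27A, RPL31 with its _at probe set, RPS3, RPS10 with its dimmer probe set, RPS16, RPS18 and RPS19, and the 2 were RPL39 and the NUDT3 probe set. Among the 9 the gap was often small. The nearest arrays were at 12.111 and 12.114 for RPL23, 13.415 and 13.418 for RPS10, and 14.144 and 14.152 for RPS18. RPL27A, RPS3 and RPS19 were about as close, and the gap was wider for RPL14, RPL31 and RPS16. After quantile normalization 3 of the 69 were higher (4.35%) against 8.16% of all. That scaling gives all arrays the same set of values, and at the top 63 members stand beside only 89 other probe sets. A rise shared by the members would in part be removed by it, so it cannot decide whether the excess is real. The same holds for the shares above 0 given under that scaling. After centring there were 13 (18.8%) against 5.87%.

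**Figure D3:**
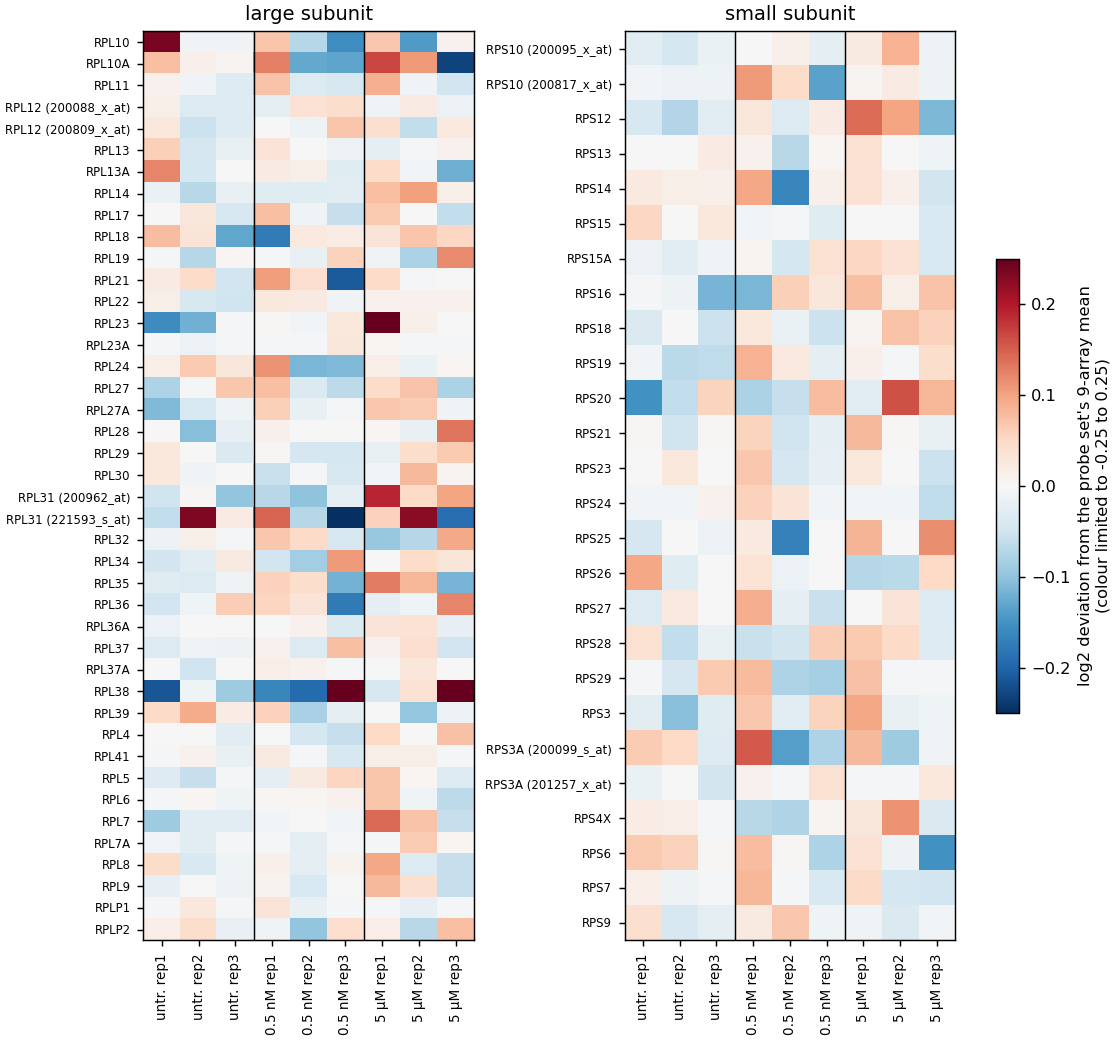
Colour shows the log2 deviation of each array (columns, grouped as untreated, 0.5 nM and 5 µM, 3 replicates each) from the 9-array mean of each ribosomal protein probe set (rows), large subunit left and small subunit right, limited to -0.25 to 0.25. The first 0.5 nM and 5 µM arrays are mostly red, with 45 and 47 of 63 bright probe sets above their own mean, and RPL38 and the _s_at probe set of RPL31 hold the strongest colours.

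The mean over the 63 bright members differed little between groups. It was 13.25, 13.23 and 13.24 on the untreated arrays, 13.27, 13.23 and 13.23 at 0.5 nM, and 13.29, 13.26 and 13.24 at 5 µM. By group this was 13.238 ± 0.0085 (SD, n = 3), 13.243 ± 0.0263 and 13.261 ± 0.0235, and the groups overlapped. The 89 others as bright were at 12.567 ± 0.0115 (SD, n = 3), 12.567 ± 0.0311 and 12.565 ± 0.00681. The lowest 5 µM array of the members, at 13.238, lay under the highest untreated one, at 13.248. The number of bright members above their own mean was 27, 21 and 18 on the untreated arrays, 45, 21 and 22 at 0.5 nM, and 47, 35 and 23 at 5 µM, so that the counts differed as much within a treated group as between groups.

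**Figure D4:**
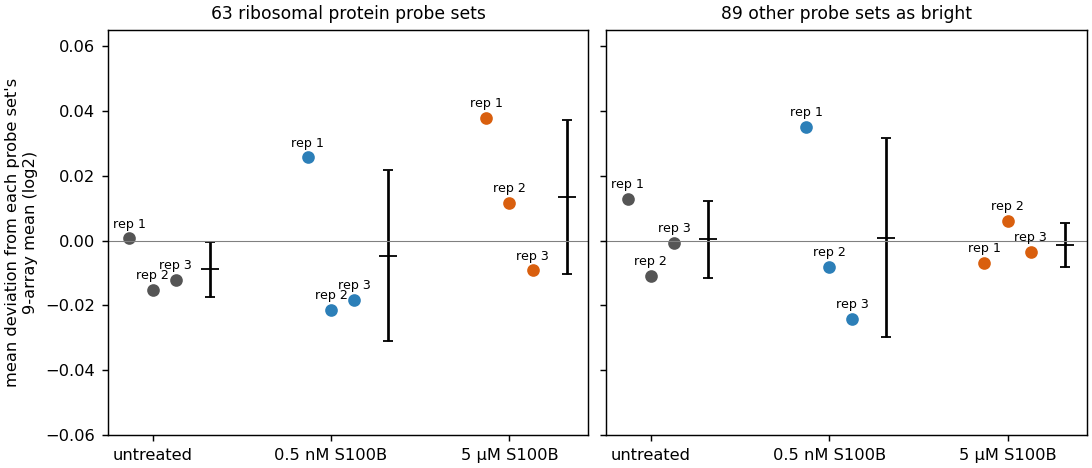
Mean deviation from each probe set's 9-array mean (vertical, log2) on each array for 63 bright ribosomal protein probe sets (left) and 89 other probe sets as bright (right); points are arrays and bars are the group mean ± SD (n = 3). On the left the 5 µM arrays run from -0.0092 to 0.038 and overlap both other groups, and on the right the 5 µM arrays lie between -0.0068 and 0.0062.

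Deviations of member pairs over the 9 arrays, after removal of the group means, correlated weakly. The median Pearson r over 1953 pairs of bright members was 0.137, with 60.5% of pairs above 0, and over pairs of the 89 others it was 0.0978 with 57.5%. This is a description, since pairs share the same 9 arrays and their scaling.

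The second comparison asked the same of the nanomolar dose. None of the 72 probe sets passed limma at 0.5 nM, and 0% of all 5830 did. At an unadjusted p under 0.05 there were 0 members and 3.29% of all probe sets. The unmoderated model called 0 members and 0 of all 5830 probe sets. The members' median difference was 0.0056, with a range of -0.16 to 0.11, and 41 of 72 were above 0 (56.9%) against 40.9% of all. After quantile normalization 46.4% of the 69 were above 0. The 95% interval lay within 0.2 of 0 for 61 of 72 and within 0.585 for 72. The furthest bound was 0.46 in size, on the low side of the _s_at probe set of RPL31.

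RPS3 had the smallest p among the ribosomal protein transcripts at 0.5 nM, with a difference of 0.09 ± 0.06 (SE), and limma's adjusted p = 1. RPS19 differed by 0.07 ± 0.05, RPL10 by -0.13 ± 0.09 and RPL23 by 0.10 ± 0.07, with overlapping arrays in each. The value of RPL10, whose probe set also lists the small RNA SNORA70, was -0.044 without untreated replicate 1, -0.075 without 0.5 nM replicate 3 and -0.19 without 0.5 nM replicate 1. The probe set of RPL10 and NDUFS5 differed by 0.09 ± 0.06. Arrays did not overlap for 1 higher and 1 lower member, against 1.97% and 5.01% of all. The higher was RPL7, at 13.48, 13.54 and 13.54 untreated and 13.56, 13.57 and 13.56 at 0.5 nM. The lower was RPS15, at 13.76, 13.70 and 13.73 untreated and 13.70, 13.70 and 13.67 at 0.5 nM. Both differences were under 0.05 log2 in size.

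The third comparison set 5 µM against 0.5 nM. It shares its arrays with the other comparisons, so its values are no separate evidence. None of the 72 passed limma, and 0.257% of all probe sets did. There were 2 members at an unadjusted p under 0.05 (2.78%) against 4.65% of all, the same RPL31 and NUDT3 probe sets as described above. The unmoderated model called 0 members and only 1 of all probe sets. The median was 0.020 with a range of -0.15 to 0.18, 44 of 72 were above 0 (61.1%) against 45% of all, and the 95% interval lay within 0.2 of 0 for 56 and within 0.585 for 72. RPL14 differed by 0.09 ± 0.05 (SE), RPS25, which some viral initiation sites need, by 0.12 ± 0.06 and RPL4 by 0.07 ± 0.05, with limma's adjusted p of 0.994 for each. RPS25 read 12.05, 11.86 and 12.03 at 0.5 nM and 12.11, 12.03 and 12.14 at 5 µM, so the second 0.5 nM array was low. Arrays did not overlap for RPL14, RPL18 and the _at probe set of RPL31, which were higher, and for the NUDT3 probe set, against 2.35% higher and 4.63% lower of all.

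**Figure D5:**
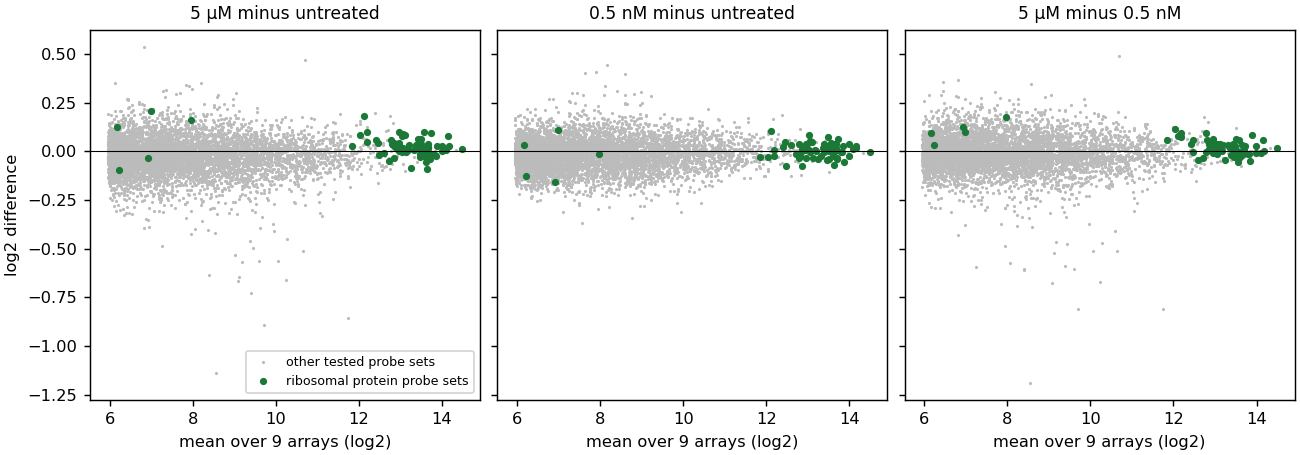
Log2 difference (vertical) against the mean over 9 arrays (horizontal, log2) for all tested probe sets (grey) and those of ribosomal protein transcripts (green, without RPS4Y1), with 1 panel per comparison. The green points lie mostly above a mean of 11.8 and between -0.16 and 0.21, inside the spread of the grey points.

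The promoter classes were set beside the differences as a description. At 5 µM the 45 probe sets of genes with a TOP start had a median difference of 0.022, from -0.09 to 0.21, and the 14 of genes with other starts 0.011, from -0.05 to 0.05. The 9 of genes with no listed start had a median of 0.033. At 0.5 nM the medians were 0.0057, -0.0016 and 0.032. The 14 Diamond-Blackfan anaemia genes of 18 listed that had a member probe set, with 16 probe sets, had medians of 0.019 at 5 µM and 0.0073 at 0.5 nM, and 0 passed limma in either.

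Genes that work with the ribosomal proteins were read from lists, and 0 genes of each list passed limma in any comparison. Each gene of these lists was read from its brightest probe set annotated to that gene alone. Of 20 TOP and translation factor genes 14 were tested, with a median difference of 0.038 at 5 µM and 0.0050 at 0.5 nM, beside medians of -0.024 and -0.016 over all probe sets. EEF1D, a subunit of the factor that recharges the elongation factor eEF1A, differed by 0.12 ± 0.06 (SE) at 5 µM, with limma's adjusted p = 0.724. A probe set of EEF2, also on this list, had a smaller p but was not the one read for the list. It differed by 0.14 ± 0.05 (SE) at 5 µM, with limma's adjusted p = 0.547. Of 30 ribosome assembly genes 13 were tested, with medians of -0.015 and 0.018. NOP2, a ribosomal RNA methyltransferase, had the smallest p of them at 5 µM, with a difference of -0.12 ± 0.09.

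Of 11 genes of RNA polymerase I and its regulators 7 were tested, with medians of -0.00079 at 5 µM and -0.042 at 0.5 nM. UBTF, the factor that opens ribosomal DNA to the polymerase, differed by -0.13 ± 0.06 (SE) at 5 µM, with limma's adjusted p = 0.728. Of 77 mitochondrial ribosomal protein genes, which serve the separate ribosome of the mitochondrion, 16 were tested, with medians of -0.049 and -0.018. At 5 µM 4 of these 16 were above 0, and MRPL49 differed by -0.15 ± 0.06 (adjusted p = 0.683). At 0.5 nM the gene of smallest p was MRPL12 in this list, at -0.10 ± 0.07, POLR1C among the polymerase I genes, at -0.11 ± 0.07, NOLC1 among the assembly genes, at 0.15 ± 0.12, and NAP1L1 among the TOP genes, at -0.21 ± 0.13, each with limma's adjusted p = 1.

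Of 13 regulators and sensors of ribosomal protein genes 6 were tested, and 0 passed in either direction. Their differences had a median of -0.043 at 5 µM, from -0.27 to 0.16 with 3 above 0, and of 0.020 at 0.5 nM. MYC, which activates ribosome genes, differed by -0.27 ± 0.09 (SE) at 5 µM, with limma's adjusted p = 0.607. TBP, the TATA-binding protein, differed by -0.17 ± 0.08 at 0.5 nM (adjusted p = 1). FAU, which encodes a ubiquitin-like protein fused to a small subunit protein and stands outside the naming rule, differed by 0.11 ± 0.06 at 5 µM (adjusted p = 0.774) and by 0.06 ± 0.06 at 0.5 nM.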

How the data were processed

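The deposited values are log2 signals, 1 per probe set and array, made by the authors with GCRMA, per the submitters' processing notes. No version or setting of it is stated in what was used. The log2 scale was read from the values, which run from 4.37 to 14.5. Precision is limited by the number of arrays. The 47 control probe sets of 8793 and 2916 of the remaining 8746 with the lowest mean over 9 arrays (at or under 5.95) were left out. limma 3.58.1 in R 4.3.3 (lmFit, eBayes) was fitted to all 9 arrays with 1 factor of 3 groups, and p-values were adjusted by Benjamini-Hochberg over 5830 probe sets, with 0.05 as threshold. The fit was tested on simulated data with added differences larger than that of any member. That test does not show how well differences of the members' size are found. An exact permutation test of 3 against 3 arrays cannot go below p = 0.1.

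Symbols came from the platform annotation, with 7840 probe sets of 1 symbol, 388 of several and 518 without an entry. Starts came from RefSeq. Members and lists were chosen with earlier results of these data known. Named are members past the threshold, the 5 of smallest p per comparison, the 5 highest and 5 lowest, genes with several probe sets, stalk, 5S and exit tunnel proteins, and in each list the gene of smallest p, read from its brightest probe set. RPS6, RPS16, RPS18, RPS20, RPL7, RPS15, RPL18, RPS24 and RPL10A were named after their values were seen. Alternatives were filters, scalings, variance models, array weights, a replicate block and each array left out.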

Additional observations from a re-analysis of the deposited data

How the results depend on the processing

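No member passed the threshold under any alternative run, in any comparison, including each array left out and the unmoderated model. The median member difference at 5 µM against untreated was 0.0052 after quantile normalization, 0.037 after median centring and 0.032 with array weights, and 0.011 to 0.033 with each array left out; without 5 µM replicate 1 it was 0.011. At 0.5 nM it was 0.017 after median centring and -0.0073 to 0.013 with each array left out, lowest without 0.5 nM replicate 1. For 5 µM against 0.5 nM it was -0.00092 to 0.035. The count of members at an unadjusted p under 0.05 at 5 µM was 6 (8.33%, beside 6.78% of all probe sets) with an intensity trend and robust prior, 5 (6.94% beside 6.5%) unmoderated, 7 (9.72% beside 12.1%) with array weights, and 1 to 6 with each array left out, where 1 (beside 7.5%) is without 5 µM replicate 1 and 6 (8.33% beside 7.56%) without 5 µM replicate 3. At 0.5 nM it was 0 to 1, with 1 (1.39% beside 7.5%) only without 0.5 nM replicate 1. For 5 µM against 0.5 nM it was 1 (1.39% beside 5.23%) after quantile normalization, 4 (5.56% beside 4.41%) unmoderated and 5 (6.94% beside 12.1%) with array weights. Without the 3 probe sets of neighbouring transcripts, a setting added after seeing the data, it was 1 (1.45%, beside 4.65% of all probe sets as fitted). With each array left out it was 1 to 3. It was 1 (1.39%) without 0.5 nM replicate 2 (beside 3.62%) or 5 µM replicate 2 (beside 3.26%). It was 3 (4.17%) without 0.5 nM replicate 1 (beside 7.63%) or 0.5 nM replicate 3 (beside 5.83%).

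Calls over all probe sets at 5 µM against untreated, 17 as fitted, were 7 with only the compared groups, 1 unmoderated, and 4 to 17 with each array left out: 6, 8 and 9 without 5 µM replicates 1, 2 and 3, and 4, 7 and 4 without untreated replicates 1, 2 and 3. For 5 µM against 0.5 nM, 15 as fitted, they were 4 with only the compared groups, 1 unmoderated and 3 to 14 with each array left out. The cause of these shifts was not tested. Titles number the replicates 1 to 3 in each group. Deviations of same-numbered arrays correlated at 0.031 to 0.071 for replicate 1, -0.00035 to 0.23 for replicate 2 and 0.298 to 0.33 for replicate 3. Differently numbered arrays were not set beside them, so whether the numbers mark a batch was not tested. The main fit did not take the numbers as pairing. With a replicate block 0 members and 15 probe sets passed at 5 µM against untreated, 0 and 0 at 0.5 nM, and 0 and 15 at 5 µM against 0.5 nM.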
